A study of Homo sapiens with 12 samples.

Results

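The human mitochondrial genome encodes 37 genes whose symbols begin with MT-, and all 37 were found by that prefix among the 57820 gene IDs of the count files. They comprise 13 mRNAs, 2 rRNAs and 22 tRNAs. Poly(A) RNA was sequenced from AsPC-1, an established human pancreatic cancer cell line, in 12 libraries that form 4 groups of 3 replicates (A, B and C). The groups cross oxygen (21% O2, normoxia, or 1% O2 for 24 h, hypoxia) with siRNA (a scrambled siRNA, siControl, or one against ARNT, siARNT). Wells were transfected in all 4 groups, the cells were divided on the next day, and RNA was taken 48 h after transfection. ARNT is the partner that HIF alpha subunits need to bind DNA, and the 4 groups ask which hypoxic changes depend on the level of ARNT. The siRNA lowered ARNT mRNA without removing it, so the groups do not settle dependence on HIF. The replicates were wells of 1 line, so p-values measure the spread between wells.

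Mitochondrial DNA is transcribed from both of its strands as long precursors. Most genes lie on 1 strand, annotated as plus, and the precursor of the other strand, annotated as minus, yields MT-ND6 and a small set of tRNAs. The tRNAs punctuate the precursors and are cut out, which frees the mRNAs and rRNAs between them. The mRNAs encode subunits of respiratory complex I (the ND genes), complex III (MT-CYB), complex IV (the CO genes) and ATP synthase (the ATP genes). Most mitochondrial mRNAs carry short poly(A) tails, whereas mature tRNAs end in CCA.

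Total gene counts ranged from 38525512 to 84337166 per library. ARNT, the siRNA target, was at 62.4 ± 1.53 CPM (counts per 1000000 gene counts, with library sizes scaled by TMM; mean ± SD, n = 3) in normoxia with siControl and at 13.4 ± 0.56 with siARNT. In hypoxia ARNT was at 69.1 ± 3.81 CPM with siControl and at 15.3 ± 1.04 with siARNT. The epithelial markers EPCAM (794 to 1049 CPM of total counts) and KRT8 (1139 to 3465) were high in every library, and the leukocyte marker PTPRC was at most 0.0968 CPM. LUM (335 to 571 CPM) and LYZ (138 to 226), listed as fibroblast and leukocyte markers, were the exceptions; the other markers of fibroblasts, leukocytes, endothelial, red blood and acinar cells that were matched reached at most 1.02 CPM. The part of LUM and LYZ in the results was not tested. Across all tested genes, the slope of log2 level on GC content per 10 percentage points was steepest in the siARNT libraries normoxia B (0.40) and hypoxia C (0.23), and lay between -0.20 and 0.12 in the other 10.

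In siControl cells the members that moved most with oxygen were 4 genes of the minus strand and MT-TT, whose sequences are shown because the results on hypoxia turn on them. The tRNAs are MT-TE (glutamate; chrM:14674-14742, minus strand), MT-TP (proline; chrM:15956-16023, minus), MT-TQ (glutamine; chrM:4329-4400, minus) and MT-TT (threonine; chrM:15888-15953, plus) in GRCh38. They are written as the RNA-sense strand of the GENCODE 29 annotation, without CCA, and capitals mark the anticodon.
MT-TE: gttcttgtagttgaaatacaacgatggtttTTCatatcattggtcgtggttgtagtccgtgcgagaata
MT-TP: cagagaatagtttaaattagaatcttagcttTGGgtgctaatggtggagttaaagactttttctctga
MT-TQ: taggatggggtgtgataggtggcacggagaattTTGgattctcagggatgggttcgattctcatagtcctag
MT-TT: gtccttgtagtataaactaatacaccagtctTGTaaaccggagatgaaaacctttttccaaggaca
MT-TE abuts MT-ND6 (chrM:14149-14673, minus strand) with no base between them. The junction below runs from the last 20 bases of MT-TE in lower case into the first 20 of MT-ND6 in capitals.
MT-TE/MT-ND6: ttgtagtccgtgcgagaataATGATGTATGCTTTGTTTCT
Neighbouring protein-coding genes also overlap. The word mRNA stands here for the counts of each protein-coding gene, and overlapping genes need not be separate RNA molecules. MT-ATP8 (chrM:8366-8572) and MT-ATP6 (chrM:8527-9207) share the 46 bases in capitals, and MT-ND4L (chrM:10470-10766) and MT-ND4 (chrM:10760-12137) share 7.
MT-ATP8/MT-ATP6: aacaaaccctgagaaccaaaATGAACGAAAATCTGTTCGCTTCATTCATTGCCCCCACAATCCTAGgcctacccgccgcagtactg
MT-ND4L/MT-ND4: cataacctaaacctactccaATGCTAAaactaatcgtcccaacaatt
Each capital stretch opens with the ATG of the downstream reading frame. How the counter treated reads across such an overlap is not given in the sources used here, so the split between the partners is uncertain.

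The tRNA genes are 59 to 75 bases long and the reads were 125 nt, so an untrimmed read over a tRNA also covers flanking sequence. Of the 22 tRNA genes, 8 (MT-TN, MT-TC, MT-TK, MT-TG, MT-TR, MT-TH, MT-TS2 and MT-TL2) had 0 counts in all 12 libraries. At 3 counts this allows up to 0.0356 to 0.0779 CPM of counted reads per library. It sets no limit on the RNA itself, because all 8 are among the 10 tRNAs with little room described next. Counts followed the room around each gene. The gap between the neighbouring genes of the same strand was under 125 bases for 10 tRNAs, and none of these exceeded 6 counts in a library. In the other 12 it was at least 125 bases or ran into sequence with no further gene, and 11 of them exceeded 9 counts. MT-TY, the remaining one, had 1 to 9. If genes of both strands were taken as neighbours, only 2 tRNAs had such room, yet 9 of the other 20 exceeded 9 counts. This geometry was looked at after the counts were seen and is a description. Trimmed reads can be shorter than 125 nt, and read lengths are not in the count files. MT-TT had the highest counts (370 to 1146 per library), followed by MT-TP (117 to 643), MT-TI (81 to 463) and MT-TQ (117 to 423). For testing, 26 members passed the filter on low counts: all 13 mRNAs, both rRNAs and 11 tRNAs.

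Mitochondrial transcripts took between 11.7% and 14.5% of gene counts in each library. In normoxia with siControl the shares were 13.8%, 13.9% and 14.5% (replicates A, B and C), and in hypoxia with siControl they were 13.5%, 12.9% and 14.2%. With siARNT they were 13.8%, 12.8% and 13.5% in normoxia and 13.7%, 13.1% and 11.7% in hypoxia. The groups overlapped in all but siARNT against siControl in normoxia, and the 2 lowest shares were those of the 2 libraries with the steepest GC slope. Hypoxia changed the mean by -0.54 percentage points with siControl (14.1% ± 0.35 to 13.5% ± 0.63; exact two-sided permutation test, p = 0.3, n = 3) and by -0.52 with siARNT (13.4% ± 0.53 to 12.9% ± 1.03; exact p = 0.6, n = 3). siARNT changed it by -0.70 in normoxia (exact permutation p = 0.1, n = 3) and by -0.67 in hypoxia (exact p = 0.5, n = 3). With 3 libraries against 3, p cannot fall below 0.1, so none of these comparisons could reach 0.05. The labels do not say that a replicate letter marks a shared day. Pairing by letter was inferred from correlations within these data, for hypoxia in siControl and siARNT in normoxia only. Within letters the share was lower in 3 of 3 pairs in both. The paired differences (A, B and C) were -0.361, -0.976 and -0.296 percentage points with hypoxia and -0.050, -1.11 and -0.932 with siARNT. The exact two-sided paired permutation test gave p = 0.25 for each, the smallest that 3 pairs allow.

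**Figure D1:**
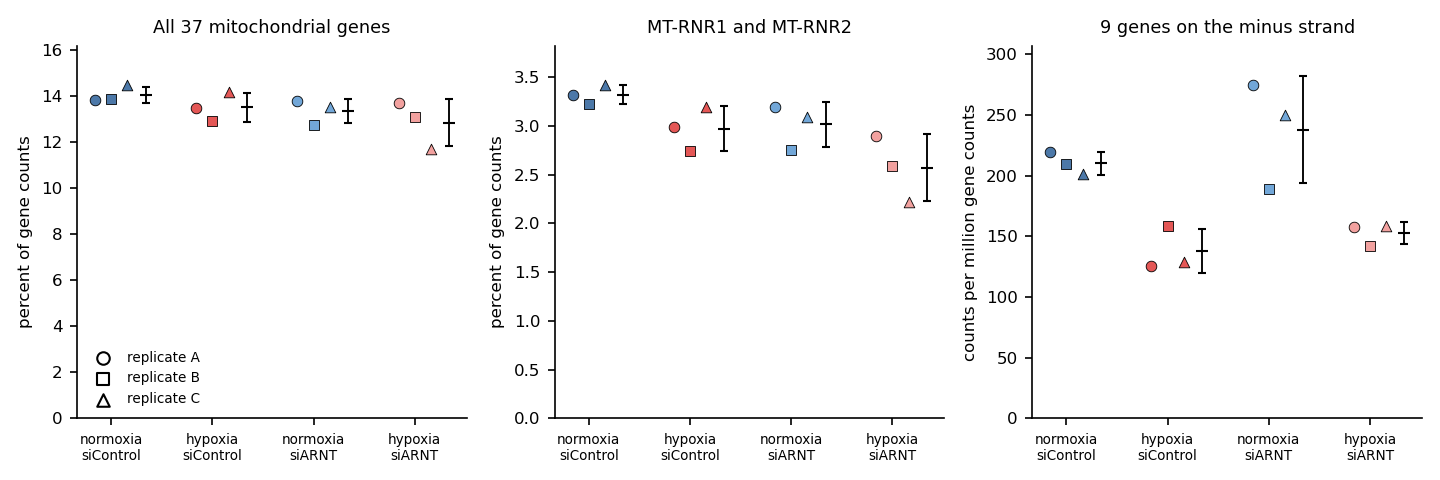
Percent of gene counts from all 37 mitochondrial genes (left) and from the 2 rRNAs (middle), and CPM of total gene counts from the 9 minus-strand genes (right), in each of the 12 libraries; bars are mean ± SD of 3. The total share lies between 11.7% and 14.5% everywhere, whereas all 6 hypoxic libraries lie below all 6 normoxic ones in the minus-strand sum.

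Most of that share was mRNA, which made up 9.5% to 11.1% of gene counts, while the rRNAs made up 2.22% to 3.41%. The tRNAs contributed 24.6 to 42.2 CPM of total gene counts. The rRNA share was 3.32% ± 0.093 in normoxia and 2.97% ± 0.23 in hypoxia with siControl, and 3.01% ± 0.23 and 2.57% ± 0.34 with siARNT (SD, n = 3). Poly(A) selection recovers rRNA incompletely, so these are not levels of the ribosome's RNA in the cell. Mature tRNAs end in CCA, so the tRNA counts are not levels of mature tRNA either. How fully poly(A) selection recovered MT-ND6 was not tested.

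Compared per kilobase of gene, on TMM-scaled CPM, the members spanned a wide range within normoxia with siControl. MT-RNR2, the large rRNA, was highest at 20804 ± 803 CPM per kb, and the small rRNA MT-RNR1 was at 1249 ± 23.9. Among mRNAs, MT-CO2 (16798 ± 427) led, followed by MT-CO1 (16029 ± 331), MT-ND4 (15332 ± 865), MT-CO3 (13322 ± 273) and MT-ATP6 (12381 ± 587). MT-CO1 and MT-ND4 overlapped across libraries, as did MT-CO3 and MT-ATP6. MT-ND4L (9078 ± 237), MT-ATP8 (8500 ± 266) and MT-CYB (6457 ± 253) came next. MT-ND2 (5898 ± 314) and MT-ND1 (5885 ± 103) could not be ordered, and MT-ND3 (4638 ± 237) and MT-ND5 (3939 ± 219) were lower. MT-ND6, which encodes a complex I subunit from the minus strand, was lowest of the 15 at 379 ± 17.1 CPM per kb. How far that rank depends on recovery of MT-ND6 by poly(A) selection was not tested. MT-ND6 was the lowest in the other groups as well, at 255 ± 31.2 in hypoxia with siControl and 420 ± 75.9 and 265 ± 19.5 with siARNT. The top of the order shifted: MT-CO3 was the highest mRNA in hypoxia with siControl (15761 ± 400), and MT-CO1 was the highest in both siARNT groups (16438 ± 538 in normoxia, 15727 ± 1213 in hypoxia, where it overlapped MT-ND4 at 13748 ± 1926).

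With hypoxia in siControl cells, scaled counts of MT-ND6 and 3 minus-strand tRNA genes fell to between 0.48 and 0.67 of their normoxic level. These are counts in poly(A) RNA and not levels of mature tRNA, and recovery of MT-ND6 by poly(A) selection was not tested. Of the 12 plus-strand mRNAs, 11 did not pass the test. By edgeR's quasi-likelihood test at an adjusted p under 0.05, 6 of the 26 members were called, of which 1 rose and 5 fell. Of all 16999 tested genes, 25.3% were called (10.4% rose, 14.9% fell). The grouping of members by strand was made after these values were seen. MT-ND6, MT-TE, MT-TP and MT-TQ, 4 of the 6 tested minus-strand members, fell. The other 2, MT-TA and MT-TS1, had log2 fold changes of -0.51 and -0.13 and were not called. Of the 20 plus-strand members, 1 rose (MT-CO3) and 1 fell (MT-TT). By class, 9 of the 11 tested tRNAs had a log2 fold change below 0 (median -0.42), and 4 were called. On the plus strand it was 4 of 6 tRNAs (median -0.07). The sum of all tRNAs went from 36.3 ± 0.69 to 25.3 ± 0.79 CPM of total gene counts (SD, n = 3), without overlap. This view by class was also added after the values were seen.

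MT-ND6 was at 209, 196 and 192 CPM in the normoxic libraries (A, B, C) and at 123, 153 and 125.4 CPM in the hypoxic ones, with no overlap. Its log2 fold change was -0.57 ± 0.12 (SE; edgeR adjusted p = 0.00497). MT-TE, the tRNA gene joined to it, was at 2.15, 1.99 and 1.76 CPM in normoxia and at 1.25, 1.16 and 1.31 CPM in hypoxia, again without overlap (log2 fold change -0.67, adjusted p = 0.00537). MT-TP, on the minus strand beside the control region, went from 5.88, 5.45 and 6.35 CPM to 2.59, 2.58 and 3.33 CPM. Its log2 fold change of -1.06 ± 0.20 (adjusted p = 0.00201) was the largest of the 26. MT-TQ was at 4.96, 4.31 and 4.21 CPM in normoxia and at 2.38, 3.24 and 2.90 in hypoxia (log2 fold change -0.67, adjusted p = 0.0151). The MT-TQ call was lost without replicate A of either group (adjusted p = 0.0661 without normoxia A, 0.0702 without hypoxia A). MT-TT, on the plus strand after MT-CYB, was at 12.9, 13.5 and 13.6 CPM in normoxia and at 8.92, 8.57 and 8.93 in hypoxia, a tight separation (log2 fold change -0.60 ± 0.10, adjusted p = 0.0011). MT-TI, the remaining tRNA among the 4 with the most counts, was at 4.55 ± 0.69 CPM and 4.32 ± 0.65 CPM and was not called.

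MT-CO3, which encodes a complex IV subunit, was the mRNA that rose. It was at 10550, 10198 and 10585 CPM in normoxia and at 12282, 12088 and 12701 CPM in hypoxia, with every hypoxic library above every normoxic one (log2 fold change 0.24 ± 0.050, adjusted p = 0.00374). The other 11 plus-strand mRNAs lay between -0.18 and 0.20 on the log2 scale. The MT-CO3 call was lost when genes with low counts were kept in the test (adjusted p = 0.057), in 1 of 23 alternative settings. Groups did not overlap for 12 of the 26 members (3 higher, 9 lower), beside 46.8% of all tested genes. With the trend of counts on GC content removed within each library, 12 members were called in place of 6, of which 7 rose and 5 fell. The shares of all tested genes called, here and below, are of fits without that removal. No such share stands beside the counts with the trend removed, so those counts are not read as a result about the members. The same 5 fell, and MT-CYB (0.28), MT-ND3 (0.27), MT-ND2 (0.26), MT-ND1 (0.21), MT-ND5 (0.21) and MT-RNR1 (0.11) were called as rises beside MT-CO3 (0.32).

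**Figure D2:**
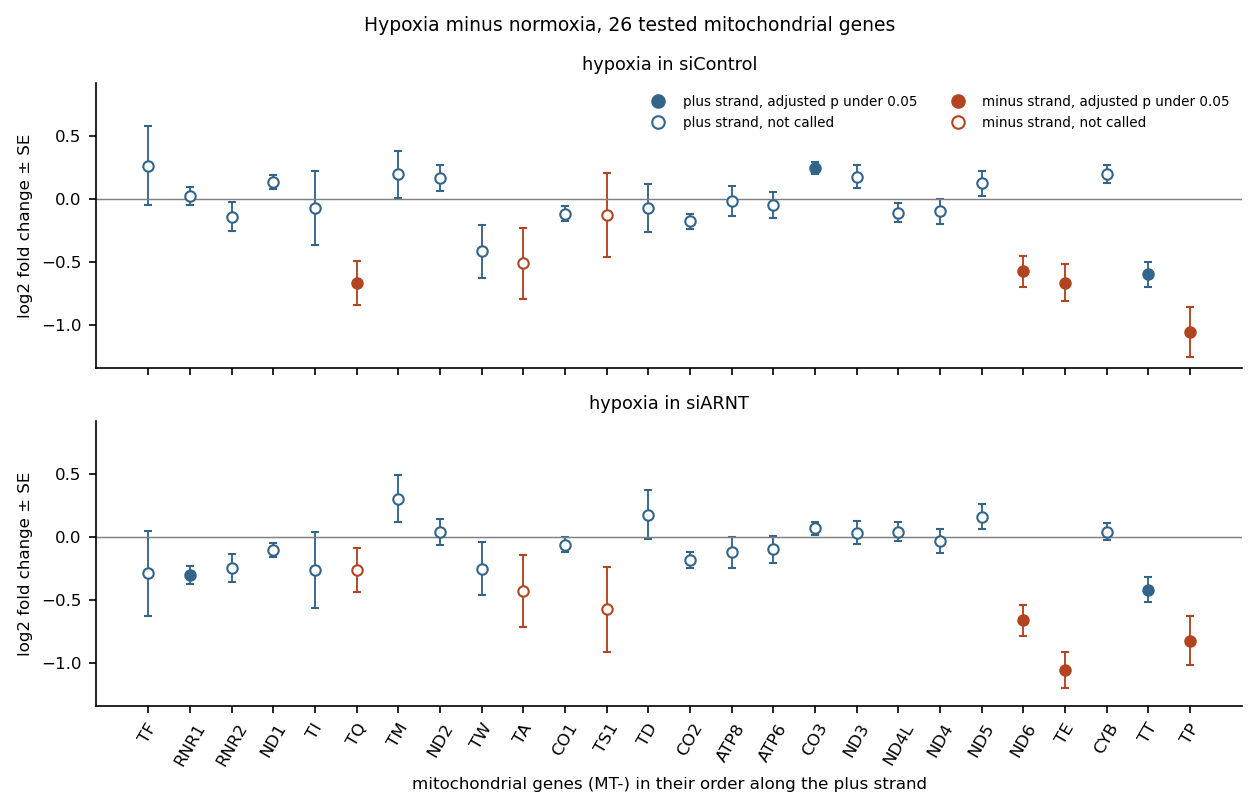
Log2 fold change (hypoxia minus normoxia) with its SE for the 26 tested mitochondrial genes, in gene order, in siControl (top) and siARNT cells (bottom); colour gives the strand and filled points have an adjusted p under 0.05. In both panels MT-ND6, MT-TE, MT-TP and MT-TT lie between -1.06 and -0.42, below all mRNAs of the plus strand.

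**Figure D3:**
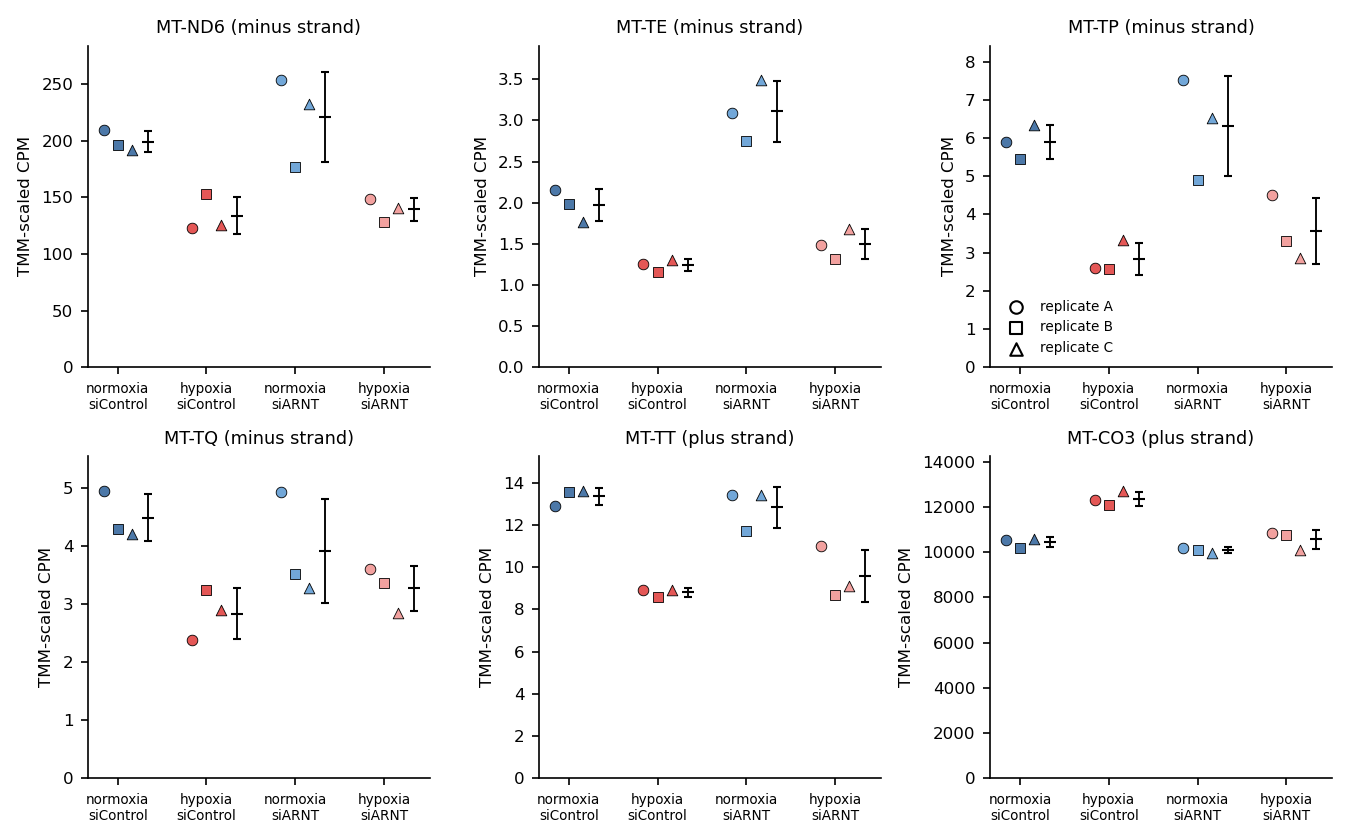
TMM-scaled CPM per library of MT-ND6, MT-TE, MT-TP, MT-TQ, MT-TT and MT-CO3 in the 4 groups; symbols are replicates A, B and C and bars are mean ± SD of 3. Hypoxic and normoxic libraries separate for MT-ND6, MT-TE, MT-TP and MT-TT with either siRNA, and for MT-TQ and MT-CO3 with siControl.

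Summed over the 9 minus-strand genes, CPM of total gene counts were 220, 209 and 201 in normoxia and 125.5, 159 and 129 in hypoxia with siControl. With siARNT the sums were 274, 189 and 250 in normoxia and 157, 142 and 159 in hypoxia. The ratio of means (hypoxia over normoxia) was 0.656 with siControl and 0.642 with siARNT. These sums are mostly MT-ND6, and they were chosen after the values of their members were seen, so they carry no test. The minus-strand tRNAs alone went from 13.4 ± 0.37 to 7.64 ± 0.64 CPM with siControl and from 14.7 ± 2.69 to 9.45 ± 0.78 with siARNT. Relative to the plus-strand mRNAs, MT-ND6 had 1.84 ± 0.13 counts per 1000 in normoxia and 1.24 ± 0.22 in hypoxia with siControl, and 2.15 ± 0.35 and 1.40 ± 0.16 with siARNT. In both siRNA groups the hypoxic and normoxic libraries did not overlap in any of these 3 measures.

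In siARNT cells hypoxia lowered MT-ND6, MT-TE, MT-TT and MT-TP, and also MT-RNR1. All 5 calls of 26 were falls, beside 4.09% of all tested genes called (2.21% rose, 1.89% fell). MT-TE was at 3.09, 2.76 and 3.49 CPM in normoxia and at 1.49, 1.31 and 1.68 in hypoxia (log2 fold change -1.06 ± 0.14, adjusted p = 0.00385). MT-ND6 was at 253, 176 and 232 CPM in normoxia and at 149, 129 and 141 in hypoxia (-0.66 ± 0.12, adjusted p = 0.0176). MT-TP went from 7.52, 4.91 and 6.51 CPM to 4.52, 3.30 and 2.85 (-0.83, adjusted p = 0.0396), and MT-TT from 13.4, 11.7 and 13.4 CPM to 11.0, 8.67 and 9.10 (-0.42, adjusted p = 0.0416). MT-RNR1 was at 1224, 1177 and 1169 CPM in normoxia and at 1049, 987 and 854 in hypoxia (-0.30, adjusted p = 0.0413). MT-TQ was at 3.92 ± 0.90 CPM in normoxia and 3.28 ± 0.39 in hypoxia, overlapped, and was not called. Groups did not overlap for 7 of the 26, all lower, beside 22.2% of all tested genes (10.7% lower). No plus-strand mRNA was called, and their log2 fold changes lay between -0.19 and 0.16. After removal of the GC trend 7 members were called, all lower, with MT-CO2 (-0.19, adjusted p = 0.00303) and MT-RNR2 (-0.28, adjusted p = 0.00337) added to the 5.

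These calls in siARNT cells rest on the spread shared by all 12 libraries. Fitted on the 6 siARNT libraries alone, none of the 26 was called (edgeR adjusted p from 0.067 for MT-TE upward among the 5, with 5 of 26 at an unadjusted p under 0.05), and 22 genes were called in all. With 1 library left out, 4 members were called without normoxia siARNT B or hypoxia siControl B, and 1 to 3 without any of the other 10. The count was 1 without normoxia siARNT A, normoxia siARNT C or hypoxia siARNT B. MT-TE was called in 22 of 23 alternative settings, MT-ND6 in 18, MT-TP in 14, and MT-RNR1 and MT-TT in 8 each. In siControl cells MT-ND6, MT-TE, MT-TP and MT-TT were called in all 23.

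The difference between both hypoxia effects, hypoxia in siARNT minus hypoxia in siControl, was tested as an interaction. None of the 26 members was called by edgeR or by DESeq2, with 3 at an unadjusted p under 0.05 in either, beside 4.69% of all tested genes called by edgeR (2.49% more positive, 2.19% more negative in siARNT cells). For the members that fell in siControl cells the interaction was -0.09 ± 0.17 (MT-ND6), -0.39 ± 0.20 (MT-TE), 0.23 ± 0.27 (MT-TP), 0.41 ± 0.25 (MT-TQ) and 0.18 ± 0.14 (MT-TT) on the log2 scale. These standard errors allow differences in either direction. For MT-CO3 it was -0.18 ± 0.070 and for MT-RNR1 -0.33 ± 0.10, neither past the threshold. After removal of the GC trend 6 members were called, all with a more negative hypoxia effect in siARNT cells: MT-RNR1 (-0.42, adjusted p = 0.000103), MT-ND1 (-0.30), MT-ND3 (-0.26), MT-CO3 (-0.26), MT-ND2 (-0.25) and MT-CYB (-0.24). With total counts as the scale only MT-RNR1 was called (-0.28, adjusted p = 0.045).

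Depletion of ARNT in normoxia lowered MT-CYB and MT-ND3 and raised MT-TE. These were 3 of 26 members, beside 20.2% of all tested genes called (9.42% rose, 10.8% fell). MT-CYB, the complex III subunit, was at 7116, 7306 and 7682 CPM with siControl and at 6336, 6192 and 6214 with siARNT (log2 fold change -0.24 ± 0.069, adjusted p = 0.033). MT-ND3, of complex I, went from 1696, 1539 and 1579 CPM to 1322, 1173 and 1397 (-0.31, adjusted p = 0.0342). MT-TE went from 2.15, 1.99 and 1.76 CPM to 3.09, 2.76 and 3.49 (0.66 ± 0.14, adjusted p = 0.00696). In all 3 the groups did not overlap, as in 11 of the 26 (2 higher, 9 lower), beside 46.5% of all tested genes. Of the 13 mRNAs, 10 had a log2 fold change below 0, with a median of -0.16 beside 0.01 over all tested genes. With the replicate letter as a block, MT-ND4L was also called (-0.21, adjusted p = 0.045). The number of calls was 0 without normoxia siControl C, 1 without normoxia siControl A or B or normoxia siARNT A or B, and 5 or 6 without hypoxia siARNT C or A, which enter only through the shared spread. After removal of the GC trend 5 were called, of which 3 rose and 2 fell.

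In hypoxia, siARNT lowered 5 mRNAs and MT-RNR1, and raised none of the 26. This was 6 of 26, beside 29.1% of all tested genes called (14.4% rose, 14.7% fell). MT-CYB was at 8584, 8135 and 8600 CPM with siControl and at 7015, 6507 and 5751 with siARNT (-0.39 ± 0.069, adjusted p = 0.00121). MT-ND3 was at 1861, 1666 and 1908 CPM and at 1396, 1416 and 1168 (-0.45 ± 0.090, adjusted p = 0.00283). MT-RNR1, the small rRNA, was at 1238, 1138 and 1255 CPM and at 1049, 987 and 854 (-0.33, adjusted p = 0.00498). MT-CO3 was at 12282, 12088 and 12701 CPM and at 10851, 10750 and 10078 (-0.23, adjusted p = 0.0048).

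MT-ATP8, of ATP synthase, was at 1708, 1622 and 1884 CPM with siControl in hypoxia and at 1552, 1269 and 1105 with siARNT (-0.41 ± 0.12, adjusted p = 0.0242). Its overlapping partner MT-ATP6 changed by -0.23 and was not called (edgeR adjusted p = 0.123). The split of counts between the pair is uncertain. MT-ND2, of complex I, was at 6971, 6217 and 7487 CPM and at 6204, 5636 and 4518 (-0.34 ± 0.11, adjusted p = 0.0308). In all 6 the siARNT libraries lay below the siControl libraries. Over the 26 members the groups did not overlap for 8 (1 higher, 7 lower), beside 40.3% of all tested genes. Replicate C of hypoxia with siARNT was the lowest library for each of the 6. Without it MT-ATP8 (adjusted p = 0.0811) and MT-ND2 (0.0793) were no longer called. Both were also lost without hypoxia siControl A or C or hypoxia siARNT B. MT-CO3 was lost only when genes with low counts were kept (adjusted p = 0.0831). MT-CYB, MT-ND3 and MT-RNR1 were called in all 22 alternative settings. After removal of the GC trend 11 members were called, of which 10 fell and 1, MT-TP (0.43), rose. The comparisons share groups of libraries. The lower MT-CYB and MT-ND3 with siARNT in normoxia and in hypoxia come from separate libraries. Cells were divided after transfection, so those libraries may share a transfection and need not be independent. The rise of MT-CO3 with hypoxia and its fall with siARNT use the same hypoxic siControl libraries.

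**Figure D4:**
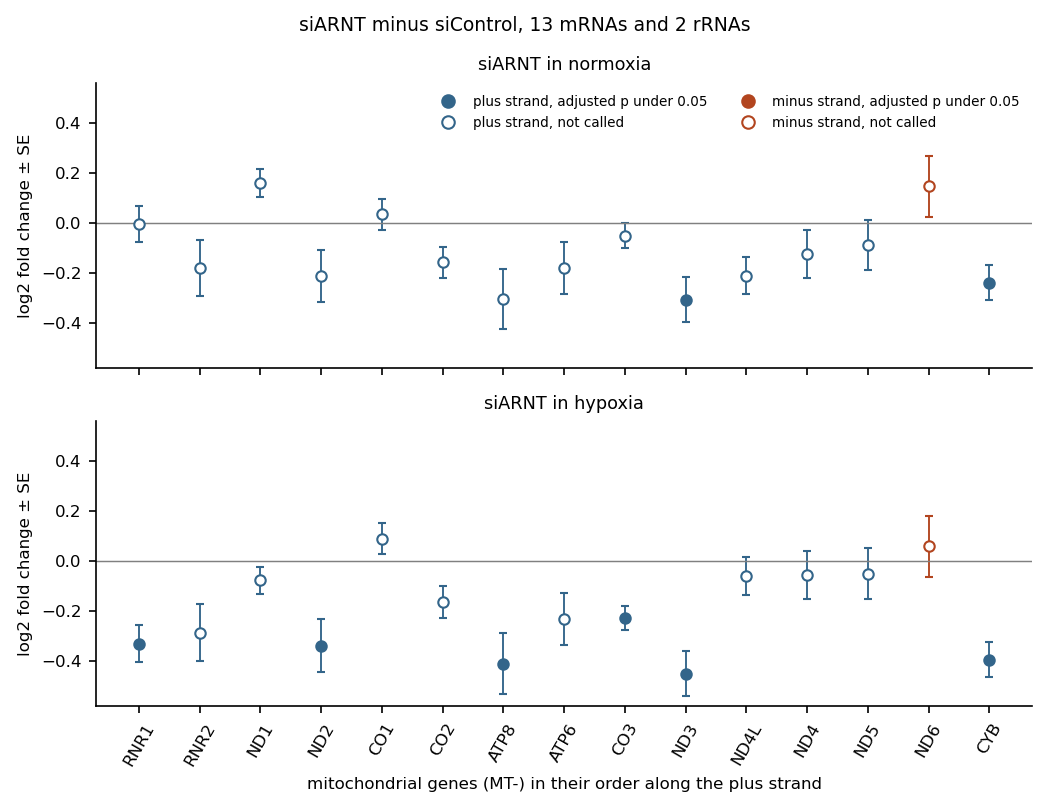
Log2 fold change (siARNT minus siControl) with its SE for the 13 mRNAs and 2 rRNAs in normoxia (top) and hypoxia (bottom); filled points have an adjusted p under 0.05. MT-CYB and MT-ND3 are filled in both panels; MT-RNR1, MT-ND2, MT-ATP8 and MT-CO3 are filled in hypoxia.

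Composition within the mitochondrial mRNAs was compared by scaling each library to the summed counts of the 13 mRNAs, which removes changes common to them. With hypoxia in siControl cells 6 of 13 mRNAs shifted against the others, 3 up and 3 down, beside 24.0% of all genes called on that scale (9.02% rose, 15.0% fell). Without replicate A or C of hypoxia with siControl 3 were called. MT-CO3 went from 9.87%, 9.57% and 9.38% of the 13 to 11.3%, 11.8% and 11.1% (log2 fold change 0.25, adjusted p = 0.00368). MT-CYB went from 6.66%, 6.85% and 6.81% to 7.87%, 7.92% and 7.55% (0.20, adjusted p = 0.00114). MT-ND2 rose by 0.17, while MT-CO2 (-0.18), MT-CO1 (-0.11) and MT-ND6 (-0.57) fell. MT-CO2 was 10.6% ± 0.097 of the 13 in normoxia and 9.35% ± 0.34 in hypoxia. Relative to the sum, the complex IV mRNAs moved in opposite directions, with MT-CO3 up and MT-CO1 and MT-CO2 down. On the TMM scale MT-CO1 (edgeR adjusted p = 0.191) and MT-CO2 (0.0532) were not called. In siARNT cells 3 of 13 shifted (5.65% of all genes called, 4.32% rose and 1.32% fell), MT-ND5 up by 0.19 and MT-CO2 and MT-ND6 down by 0.15 and 0.62. None of the 13 was called in the 6 siARNT libraries alone, or without any 1 of normoxia siControl A, B and C, normoxia siARNT A and C, and hypoxia siARNT A and B; 1 was called without normoxia siARNT B.

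With siARNT in normoxia 4 of 13 mRNAs shifted (16.1% of all genes called, 8.51% rose and 7.55% fell). The number was 1 without normoxia siControl B and 2 without any 1 of normoxia siControl A, normoxia siARNT A and B, and hypoxia siControl A. MT-ND1 went from 5.16%, 5.31% and 5.06% of the 13 to 5.95%, 6.51% and 5.99% (0.25, adjusted p = 0.00597), and MT-CO1 rose by 0.12. MT-CYB (-0.15) and MT-ND3 (-0.22) fell. In hypoxia 5 of 13 shifted with siARNT (31.0% of all genes called, 21.4% rose and 9.61% fell). MT-CO1, the largest subunit of complex IV encoded here, rose from 21.0%, 21.5% and 20.5% to 23.7%, 24.2% and 24.9% (0.21, adjusted p = 0.00083). MT-CYB fell from 7.87%, 7.92% and 7.55% to 6.40%, 6.39% and 6.45% (-0.28, adjusted p = 9.01e-05). MT-ND3 (-0.33), MT-ATP8 (-0.30) and MT-ND2 (-0.23) also fell. MT-CO1 and MT-CYB lay on opposite sides of the sum with siARNT in both oxygen conditions. Shares of a sum are linked, so falls of some members raise the shares of others. On the TMM scale MT-CO1 was not called with siARNT, at 0.04 in normoxia (edgeR adjusted p = 0.692) and 0.09 in hypoxia (edgeR adjusted p = 0.304). None of the 13 mRNAs was called for the interaction on this scale by edgeR, with 3 at an unadjusted p under 0.05, beside 8.11% of all genes called (6.45% more positive, 1.66% more negative in siARNT cells).

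**Figure D5:**
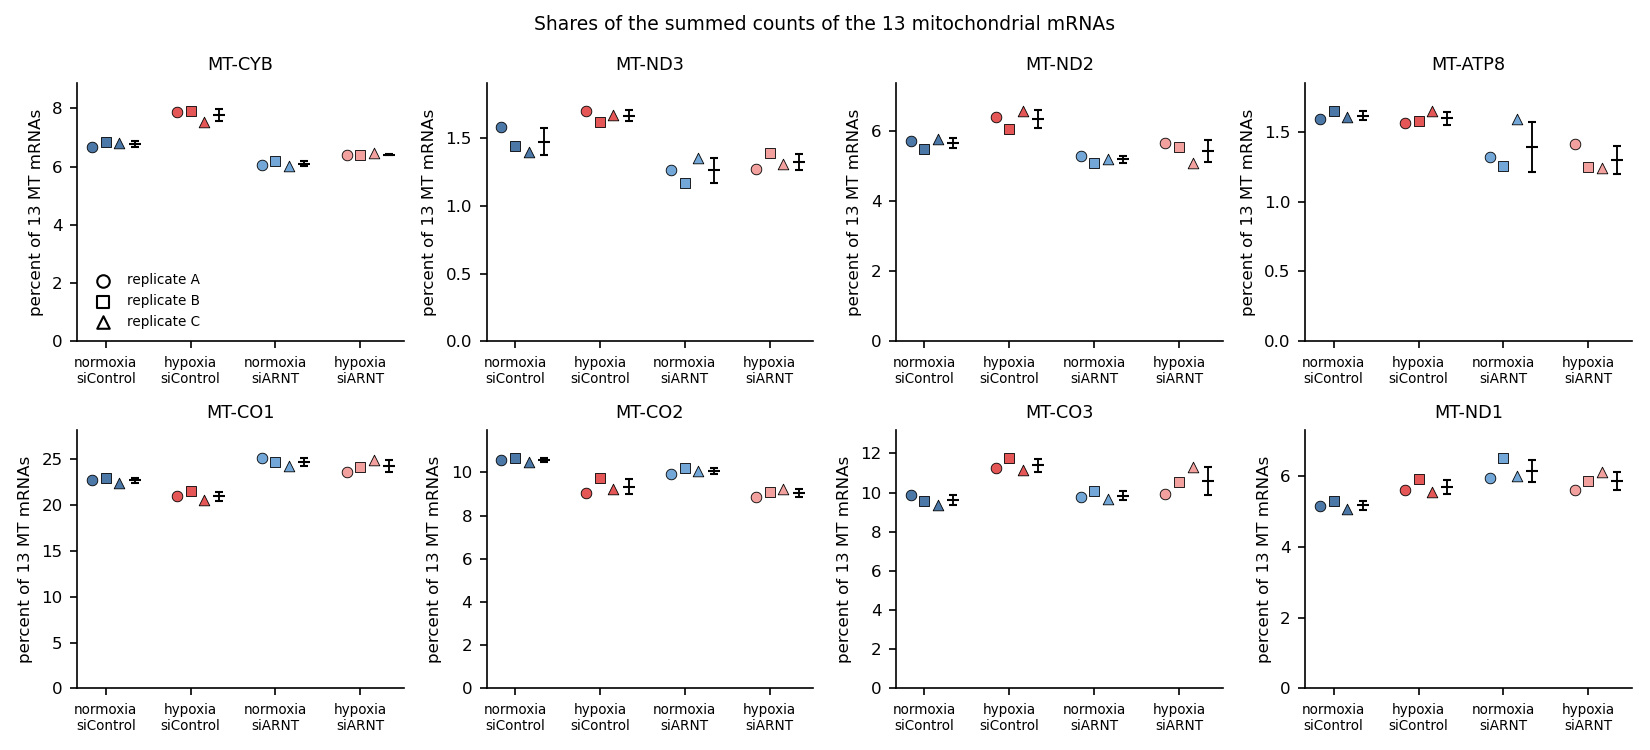
Share of the summed counts of the 13 mitochondrial mRNAs taken by 8 of them in each library; symbols are replicates A, B and C and bars are mean ± SD of 3. MT-CYB is at 7.55% to 7.92% in hypoxia with siControl and at 6.39% to 6.45% with siARNT, and MT-CO1 is at 20.5% to 21.5% and at 23.7% to 24.9%.

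The rRNAs were compared on the same scale. MT-RNR1 had 11.0, 11.0 and 10.8 counts per 1000 mRNA counts in normoxia with siControl, and 11.4, 11.1 and 11.0 in hypoxia. With siARNT it had 11.7, 11.8 and 11.4 in normoxia and 9.57, 9.69 and 9.58 in hypoxia, so the hypoxic siARNT libraries lay below the other 9. Its hypoxia effect differed between the siRNAs on this scale (interaction -0.30 ± 0.048, edgeR adjusted p = 0.00396). This interaction was called in all 13 alternative settings, which were the letter block and leaving out each library. DESeq2, other scalings and the GC correction were not run on this scale. On the TMM scale the interaction of MT-RNR1 was called in 3 of 22 alternatives. With hypoxia in siARNT cells MT-RNR1 changed by -0.27 (adjusted p = 0.00357) and MT-RNR2 by -0.22 (adjusted p = 0.0478) against the mRNAs. With siARNT in hypoxia they changed by -0.21 (adjusted p = 0.000637) and -0.17 (adjusted p = 0.0386). The calls of MT-RNR2 depended on the setting: it was called in 3 of 14 alternatives for hypoxia in siARNT (adjusted p = 0.0334 to 0.222) and in 5 of 14 for siARNT in hypoxia (0.00862 to 0.125), and its groups overlapped in both. With 1 library left out the first call held only without normoxia siARNT B or hypoxia siARNT A, and the second only without normoxia siARNT A or B, hypoxia siControl B or hypoxia siARNT A. MT-RNR1 was called in 13 and 14 of those 14. MT-RNR2 counts exceeded those of MT-RNR1 by a factor of 27.2 ± 0.66 in normoxia with siControl, 24.2 ± 1.06 in hypoxia with siControl, 24.1 ± 1.48 in normoxia with siARNT and 24.9 ± 1.87 in hypoxia with siARNT. MT-ATP8 had 20.9 ± 0.54 counts per 100 of its overlapping partner MT-ATP6 in normoxia with siControl and 21.3 ± 0.45 in hypoxia. With siARNT the same ratio was 19.2 ± 2.82 in normoxia and 18.8 ± 0.81 in hypoxia. MT-ND4L per 100 MT-ND4 overlapped between groups in every comparison (12.0 ± 0.61 to 12.8 ± 0.94).

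Transcription and processing of these genes depend on proteins encoded in the nucleus. TFAM packages mitochondrial DNA and opens its promoters, POLRMT is the mitochondrial RNA polymerase, and LRPPRC stabilizes the mRNAs. Of 54 such factors listed, 52 were tested. With hypoxia in siControl cells 22 fell and 1 rose, with a median log2 fold change of -0.32 beside 0.02 over all tested genes, of which 14.9% fell. TFAM was at 119 ± 6.60 CPM in normoxia and 87.8 ± 4.62 in hypoxia (-0.44 ± 0.083, adjusted p = 0.00228). PNPT1, a polynucleotide phosphorylase that degrades mitochondrial RNA, was at 127 ± 4.79 and 65.1 ± 7.00 CPM (-0.96 ± 0.10, adjusted p = 5.38e-05). DDX28, a helicase of mitochondrial ribosome assembly, changed by -0.80 (adjusted p = 0.000494). The rise was in MTERF4 (0.17, adjusted p = 0.0368), which takes part in mitochondrial ribosome assembly; it was lost without hypoxia siControl C (adjusted p = 0.156), among other settings. LRPPRC (-0.20, adjusted p = 0.191) and POLRMT (0.15, adjusted p = 0.846) were not called. A further 7 nuclear genes linked to mitochondria in hypoxia were listed, of which 5 were tested; 1 rose and 2 fell. The rise was in MXI1, a MYC antagonist (1.11, adjusted p = 3.52e-06). The falls were in NDUFA4, a respiratory chain subunit (-0.36, adjusted p = 0.0016), and HIGD1A, a hypoxia-inducible mitochondrial protein (-0.38, adjusted p = 0.0396), whose call was lost without normoxia siControl A or C, any library of hypoxia with siControl or hypoxia siARNT B (adjusted p = 0.0567 to 0.151).

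In siARNT cells 2 of the 52 factors fell with hypoxia and none rose (1.89% of all genes fell). They were DDX28 (-0.47, adjusted p = 0.0468) and PDE12 (-0.32, adjusted p = 0.0344), which trims poly(A) from mitochondrial mRNAs. Neither was called in the 6 siARNT libraries alone (adjusted p = 0.243 and 0.237). TFAM was at 135 ± 10.8 CPM in normoxia and 119 ± 11.6 in hypoxia and was not called (-0.18, adjusted p = 0.247). The interaction was called for 3 of 52, all positive, beside 4.69% of all tested genes (2.49% positive). They were PNPT1 (0.73, adjusted p = 0.0174), PPARGC1B, a coactivator of mitochondrial biogenesis (0.60, adjusted p = 0.00913), and SLIRP, a partner of LRPPRC (0.46, adjusted p = 0.0096). PNPT1 was lost without normoxia siControl A (adjusted p = 0.0525) or C (0.0589). PPARGC1B (0.0511) and SLIRP (0.0781) were lost when genes with low counts were kept. TFAM was not among them (0.26 ± 0.12, adjusted p = 0.226), nor were LRPPRC (0.32, adjusted p = 0.249) and POLRMT (-0.75, adjusted p = 0.526).

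siARNT raised 2 and lowered 11 of the 52 factors in normoxia, beside 9.42% of all tested genes that rose and 10.8% that fell. In hypoxia it raised 12 and lowered 5, beside 14.4% and 14.7% of all tested genes. ANGEL2, a relative of deadenylases, had log2 fold changes of -0.62 in normoxia (edgeR adjusted p = 0.000495) and -0.47 in hypoxia (edgeR adjusted p = 0.00126). TFB1M, which methylates the small rRNA, fell by 0.73 in normoxia (adjusted p = 0.00071), from 10.2 ± 0.70 to 6.15 ± 0.18 CPM. The rises in normoxia were MRPL12 (2.81, adjusted p = 0.0412) and POLG, the mitochondrial DNA polymerase (0.54, adjusted p = 0.0424). MRPL12 was at 0.55, 4.01 and 0.785 CPM with siARNT, so its mean was set by replicate B, the library of steepest GC slope, and without that library neither gene was called (adjusted p = 0.18 and 0.146). POLRMT was likewise highest there (5.2, 14.6 and 5.96 CPM) and was not called (1.38, adjusted p = 0.0559). In hypoxia the largest rises were HSD17B10, a subunit of mitochondrial RNase P (0.81, adjusted p = 0.0161), and PPARGC1B (0.70, adjusted p = 3.22e-05). HSD17B10 was lost without hypoxia siControl A (adjusted p = 0.0594), hypoxia siControl C (0.0574) or hypoxia siARNT C (0.061). TFAM rose as well (0.44, adjusted p = 0.00201), and PNPT1 rose by 0.63 (adjusted p = 0.000686). The largest falls among the factors in hypoxia were those of ANGEL2, given above, and YY1, a transcription factor (-0.46, adjusted p = 0.000408). Of the 5 hypoxia-linked genes tested, MXI1 fell by 1.29 (adjusted p = 5.09e-07) and NDUFA4 rose by 0.42 (adjusted p = 0.000412).

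Nuclear copies of mitochondrial genes can take up or lose reads that fit both places. Of 389 annotated pseudogenes of this kind, 22 were tested, and together they held 0.110% to 0.166% of gene counts per library. The 3 with the most counts, MTATP6P1 (1311 ± 131 CPM in normoxia with siControl), MTCO1P12 (169 ± 8.79) and MTND2P28 (34.8 ± 4.23), were called in no comparison. Of the 22, 1 was called, a fall with siARNT in hypoxia, beside 29.1% of all tested genes called there (14.4% rose, 14.7% fell). None was called with hypoxia in siControl (25.3% of all tested genes) or in siARNT (4.09%). The same held for siARNT in normoxia (20.2%) and the interaction (4.69%). Reads that mapped to more than 1 place were 14.5% to 15.1% of all reads and are in no gene's count, so members with near-identical copies are uncertain in level.

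Over the 12 libraries, log2 CPM of the 3 nuclear genes most like the summed mitochondrial mRNAs gave a Pearson correlation of 0.962 (BTF3), 0.944 (EPC1) and 0.934 (COPB1) among 9839 genes ranked. The libraries share their scaling and groups, so this is a description without a test. Among the members themselves MT-ATP6 (0.979), MT-ND4 (0.933) and MT-ND2 (0.897) followed the summed mRNAs most closely, whereas MT-ND6 (0.021), MT-TE (-0.187) and MT-TS1 (-0.248) did not. Each mRNA is itself part of that sum and the tRNAs are not, so part of this contrast is built in.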

How the data were processed

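Single reads of 125 nt came from stranded poly(A) libraries, per the labels' protocols. The submitters' processing notes name Trimmomatic, STAR 2.4.2a and GRCh38.p10. The deposited values are whole-number read counts per gene, made by the authors with HTSeq according to the names they gave the files; the version, strand setting and annotation are not given in the sources used here. Symbols were paired with 51996 of 57820 gene IDs. All 37 mitochondrial IDs match GENCODE 29, whose GRCh38 positions and transcripts are used; no promoter or protein sequence is shown.

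Counts of all 12 libraries were fitted with edgeR 4.0.16 (R 4.3.3, limma 3.58.1): TMM scaling, filterByExpr, 1 mean per group, robust quasi-likelihood test, Benjamini-Hochberg adjustment over 16999 genes, called at an adjusted p under 0.05. A second fit took the summed counts of the 13 mRNAs as library size. The shares of counts were compared by exact permutation (scipy 1.17.1). DESeq2 1.42.0, other scalings, a GC correction, replicate blocks and leaving out each library were the alternatives of the first fit. Leaving out both libraries of steepest GC slope was added after the data were seen. The second fit was repeated only with the letter block, on the samples compared and without each library. The fit was tested on simulated data first. The labels do not say that a replicate letter marks a shared day. Deviations of same-letter libraries correlated at 0.387 to 0.882 in 2 comparisons (hypoxia in siControl and siARNT in normoxia). Pairing there was inferred from these correlations.

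All mRNAs and rRNAs are named, with the 4 tRNAs of highest mean count and any tRNA called, the 3 pseudogenes of highest count, the 3 nuclear genes most correlated with the summed mRNAs, TFAM, POLRMT and LRPPRC, and per comparison the 2 largest rises and falls among the factors called. MT-TA and MT-TS1, SLIRP, MXI1, NDUFA4, HIGD1A, the further values of named factors, the paired test of shares and the strand groups were chosen after values were seen. The members and lists were chosen with earlier results of these data known.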

Additional observations from a re-analysis of the deposited data

Results flagged for a closer look

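The difference in hypoxia effect between siARNT and siControl cells was itself tested (interaction term, edgeR). Among the 26 tested members, 52 factors and 5 hypoxia-linked genes, it was called for 1 mitochondrial gene and 4 nuclear genes. Of all tested genes, 4.69% were called on the TMM scale and 8.11% relative to the summed mitochondrial mRNAs. MT-RNR1 relative to the summed mitochondrial mRNAs had an interaction of -0.30 (adjusted p = 0.00396), with 9.57 to 9.69 counts per 1000 mRNA counts in the 3 hypoxic siARNT libraries and 10.8 to 11.8 in the other 9. On the TMM scale its interaction was -0.33 and was not called. The nuclear genes were MXI1 (-0.81, adjusted p = 0.00219), PNPT1 (0.73, adjusted p = 0.0174), PPARGC1B (0.60, adjusted p = 0.00913) and SLIRP (0.46, adjusted p = 0.0096). PNPT1 was no longer called without normoxia siControl A (adjusted p = 0.0525) or C (0.0589), and PPARGC1B (0.0511) and SLIRP (0.0781) when genes with low counts were kept.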

How the results depend on the processing

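With the GC trend removed, with or without the replicate block, 12 members were called for hypoxia in siControl and 7 for hypoxia in siARNT. For siARNT 5 were called in normoxia and 11 in hypoxia. For the interaction 6 were called, and 5 with the block. The shares of all tested genes given above belong to the main fits, and none is given for these settings. Whether calls became more frequent over all genes as well is therefore not shown. For hypoxia in siARNT, 3 were called with DESeq2 size factors, 3 with the well as replicate block, 3 without the 2 libraries of steepest GC slope and 0 in the 6 libraries compared, where 0 mRNAs were called relative to their sum. The well block treated libraries of the same siRNA and letter as a shared well across oxygen. Total count scaling gave 1 call for the interaction.

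With the letter as replicate block 6 members were called for the hypoxia effect with siControl and 5 for that with siARNT, 4 for siARNT at 21% O2, 6 for siARNT at 1% O2 and 0 for the interaction; the block changed no other call of a member on the TMM scale. Same-letter correlations were 0.909, -0.129 and -0.853 for hypoxia in siARNT and 0.683, -0.095 and -0.719 for siARNT in hypoxia, so letters do not pair there; 7 of 12 libraries correlated best with their own letter.

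Leaving out 1 library gave 5 to 8, 1 to 4, 0 to 6, 4 to 9 and 0 to 0 members called in that order. Relative to the mRNA sum the ranges were 3 to 8, 0 to 3, 1 to 5, 4 to 6 and 0 to 0. The change in share ranged from -0.872 to -0.238, -0.954 to 0.0515, -0.911 to -0.400, -1.11 to -0.103 and, for the interaction, -0.409 to 0.596 percentage points.

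On the TMM scale 43 of the 110 member values that were not called took both signs over the alternatives, and 0 of the 20 called did. The alternatives reuse the libraries on which the calls were made, so this contrast is partly built in and is a description. The interaction of MT-ND6 ranged from -0.211 to 0.0231 and that of MT-ATP8 from -0.228 to 0.00556 without 1 library. POLRMT changed with hypoxia in siControl by -0.21 with the GC trend removed (-0.22 with the block) and by -0.25 to 0.40 without 1 library, and with hypoxia in siARNT by -1.06 to 0.0227. The value of LRPPRC, siARNT in normoxia, was 0.0378 with the GC trend removed and 0.0376 with the block as well. The cause of these shifts was not tested.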
